A study of Homo sapiens with 2 samples.

Results

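The 47 interferon-stimulated genes examined here were a list of known target genes of interferon named by symbol and not by a threshold on these signals, although earlier results of these data were known when it was drawn up. Every one of the 47 genes, out of 19775 genes on the array with a gene name of their own, was measured by at least 1 probe set annotated to it alone. The cells were of the Hodgkin lymphoma (HL) line L-428. The PRAME knock-down cells were stably transfected with pcDNA6.2-GW/EmGFP-miR-PRAME, a vector for RNA interference against the tumor antigen PRAME, and the control cells with the vector control pcDNA6.2-GW/EmGFP-miR-neg. Both vectors carry a green fluorescent protein, and both kinds of cells had been selected with blasticidin. Whether the stable transfectants came from 1 or several clones is not given in the sources used here. Since each condition had a single array, nothing could be tested, and differences are given by counts of genes past 1.5-fold and 2-fold. The number of arrays limits the precision.

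Interferons are secreted proteins that warn cells of viral infection. They bind to receptors at the cell surface, whose JAK kinases activate STAT proteins, and these enter the nucleus, partly together with IRF9, and bind to the interferon-stimulated response element (ISRE) or to the gamma-activated site (GAS) of target genes. The products of these genes recognize viral RNA, cut or edit it, block translation, hold back virus particles at the membrane or tune the signal itself.

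Among the 36 members with promoters in the RefSeq table (build GRCh38.p14), 23 had an ISRE, searched as GAAA and GAAA with 2 bases between them, on either strand between 250 bases before and 50 bases after a start site. Counted by promoter, 28 of 52 promoters of the members (53.8%) had this motif, against 3.57% of all 35116 promoters. GAS, searched as TTC and GAA with 3 bases between them, was found in 13 of the 52 promoters, against 7.66% of all promoters, and matches of both motifs shared bases in 5 of the promoters. A match describes these letters only. The promoters of 4 members are shown as examples. ISRE matches are in capitals for ISG15 (chr1:1013247-1013546, plus strand), IFIT1 (chr10:89392373-89392672, plus strand) and MX1 (chr21:41420308-41420607, plus strand). The GAS match is in capitals for IRF1 (chr5:132490724-132491023, minus strand).
ISG15: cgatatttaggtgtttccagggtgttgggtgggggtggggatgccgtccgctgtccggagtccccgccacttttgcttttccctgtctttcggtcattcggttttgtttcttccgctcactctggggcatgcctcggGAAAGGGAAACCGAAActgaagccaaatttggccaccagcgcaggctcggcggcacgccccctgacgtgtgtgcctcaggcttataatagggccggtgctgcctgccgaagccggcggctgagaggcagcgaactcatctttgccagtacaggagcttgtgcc
IFIT1: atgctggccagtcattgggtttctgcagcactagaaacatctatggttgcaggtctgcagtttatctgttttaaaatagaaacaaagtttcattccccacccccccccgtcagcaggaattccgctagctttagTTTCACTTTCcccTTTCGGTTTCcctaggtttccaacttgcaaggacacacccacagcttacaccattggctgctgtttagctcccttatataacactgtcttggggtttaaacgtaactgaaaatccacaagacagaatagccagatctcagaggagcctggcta
MX1: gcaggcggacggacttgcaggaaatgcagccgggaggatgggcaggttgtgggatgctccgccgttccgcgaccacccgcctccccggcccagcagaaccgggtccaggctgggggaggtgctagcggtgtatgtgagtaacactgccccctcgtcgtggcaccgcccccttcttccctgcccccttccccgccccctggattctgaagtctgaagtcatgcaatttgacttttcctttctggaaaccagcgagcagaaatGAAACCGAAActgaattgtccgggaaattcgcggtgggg
IRF1: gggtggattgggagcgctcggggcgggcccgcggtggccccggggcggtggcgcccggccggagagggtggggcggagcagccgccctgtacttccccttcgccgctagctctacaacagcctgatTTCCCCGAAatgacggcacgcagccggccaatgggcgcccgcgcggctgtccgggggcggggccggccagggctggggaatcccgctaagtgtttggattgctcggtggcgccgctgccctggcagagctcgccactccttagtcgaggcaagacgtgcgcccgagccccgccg
In ISG15 a pair of overlapping matches began 113 and 107 bases before the start site, and in IFIT1 the matches began 116 and 103 bases before it. The MX1 match began 11 bases behind the start site, and a match was also found in 1 of the other two promoters of MX1. The IRF1 promoter had no ISRE match, and its GAS match began 124 bases before the start site. Up to 3 ISRE matches were found in 1 promoter, namely in HERC5, IFI6, IFIH1 and IFIT5.

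The signals of PRAME itself were 1251 in the knock-down cells and 2115 in the control cells (log2 ratio -0.80 after centering). All values are deposited MAS5 signals on a linear scale, and every log2 ratio is knock-down over control, less the median over the probe sets above the filter (0.045). Probe sets with a mean log2 signal below the median of all probe sets, which corresponds to a signal of 97.7, are called probe sets of low signal. Of 10 markers of Hodgkin and Reed-Sternberg cells 9 were above this filter, with CCL22 below it. Of 15 markers of T cells, monocytes, plasmacytoid dendritic cells, NK cells and fibroblasts 11 were of low signal, among them all markers of T cells and monocytes, and the summed signal of the 15 was 1764 in knock-down cells and 1909 in control cells. LILRA4 (86.7 in knock-down and 111 in control cells), KLRF1 (259 and 176), COL1A1 (790 and 1199) and COL1A2 (184 and 53.4) were above the filter. The sums thus rest largely on COL1A1 and hide differences in both directions. GAPDH had a 3'/5' ratio of 1.04 in knock-down cells and 0.948 in control cells, and ACTB of 1.17 and 1.14. The description of the series names another cell line and another array type than the sample labels, and the labels were followed.

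Most interferon-stimulated genes, like most of all genes above the filter, had nearly the same signal in PRAME knock-down and control cells. Of the 47 members 43 were above the filter. No member had a 1.5-fold or more higher signal after knock-down of PRAME, against 7.54% of all 11794 genes above the filter, and 2 were at least 1.5-fold lower, namely MX1 and IFIT2, against 5.42% of all genes. One of these, MX1, was at least 2-fold lower (0.729% of all genes), and none was 2-fold higher (1.73% of all genes). The median log2 ratio of the members was -0.027 and that of all genes -0.0069. The members' log2 ratios reached from -1.12 to 0.40, with 20 above and 23 below 0. A difference under 1.25-fold was found for 32 of the 43 members (74.4%) and for 63.9% of all genes. This bound was chosen after the values were seen. Low signals vary more on these arrays, with an SD of the log2 ratios of 0.54 in the lowest and 0.27 in the highest eighth of the probe sets above the filter. For genes above the 75th percentile of signal, the share under 1.25-fold was 78.1% for 32 members and 71.1% for all 7392 genes. Nothing particular to the members is read from these shares under 1.25-fold. The spread between probe sets of 1 gene was 0.33 on the log2 scale (pooled SD over 5840 genes), and 33 of the 43 members differed from 0 by less than that. The share of all genes within 0.33 was not counted. The quartiles of all genes, -0.23 and 0.23, also lay within it, so nothing particular to the members is read from this count. The spread between probe sets does not measure the difference between cultures.

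**Figure D1:**
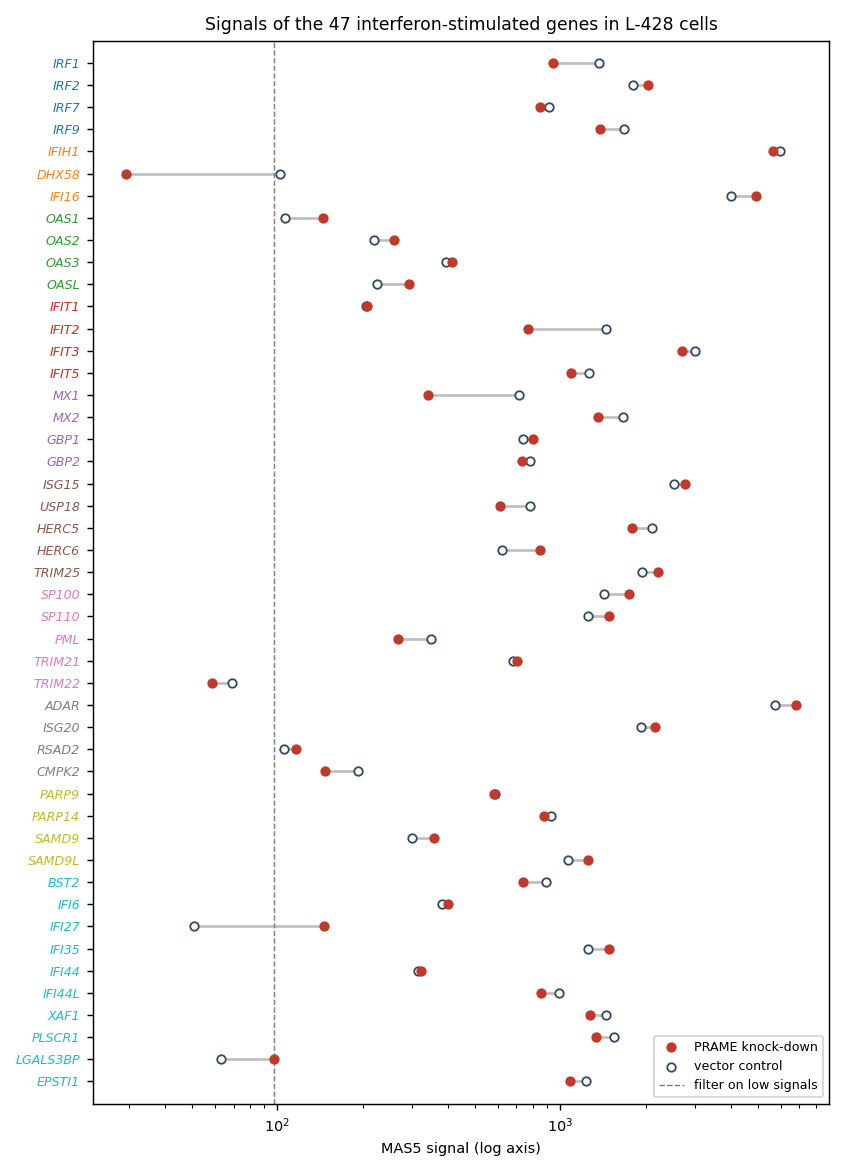
MAS5 signals (log axis) of the 47 interferon-stimulated genes in PRAME knock-down cells (red points) and vector control cells (open points), 1 array per condition, each gene at its probe set of highest signal, with gene names colored by role group. MX1 (340 and 716 in knock-down and control cells) and IFIT2 (767 and 1448) stand out among the genes above the dashed filter at 97.7, and DHX58 and IFI27 among those of low signal.

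**Figure D2:**
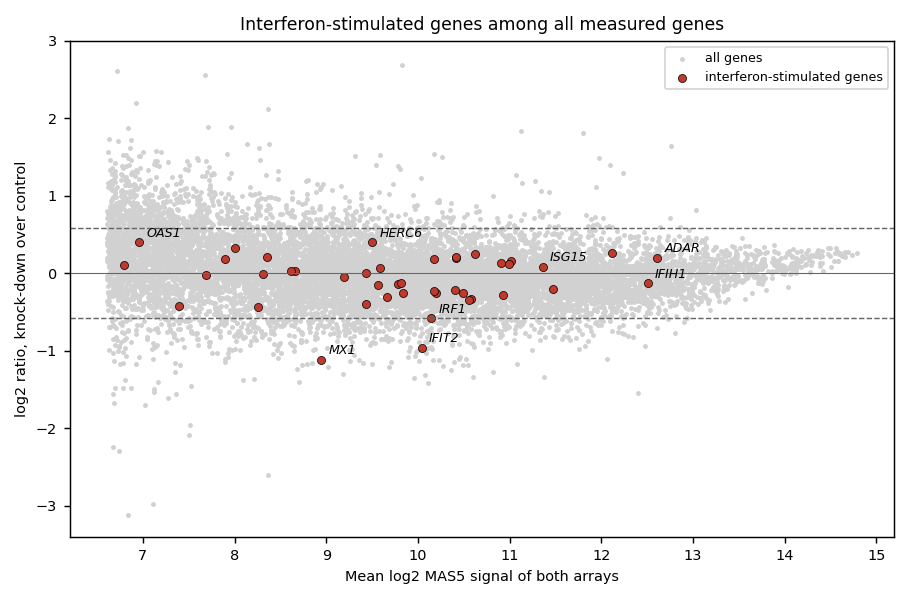
Mean log2 MAS5 signal over the arrays (horizontal axis) and log2 ratio of knock-down over control cells (vertical axis), with 1 grey point for each of 11794 genes above the filter and red points for the 43 interferon-stimulated genes (1 array per condition, dashed lines at 1.5-fold). The red points lie between -1.12 for MX1 and 0.40 for OAS1, and 2 of them lie below the lower line.

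The transcription factors of the interferon response were IRF1, IRF2, IRF7 and IRF9, and none passed 1.5-fold. IRF1, an activator of interferon target genes that is itself induced by interferon gamma, had a signal of 940 in the knock-down cells and 1367 in the control cells. Its log2 ratio of -0.58 was just short of the threshold (1.4998-fold lower). A further IRF1 probe set, 238725_at, differed in direction, with 648 and 579 (log2 ratio 0.12). IRF9, the DNA-binding partner of the STAT proteins, had signals of 1380 in knock-down cells and 1685 in control cells (log2 ratio -0.33). IRF7, the main activator of the interferon alpha genes, had 849 and 908, and IRF2, which competes with IRF1 for DNA, had 2038 and 1808. The log2 ratios of these 2 genes were -0.14 and 0.13. By their probe sets of highest signal IRF1, IRF7 and IRF9 were thus lower and IRF2 was higher in the knock-down cells. IRF2 and IRF7 differed from 0 by less than the spread between probe sets of 1 gene (0.33), and IRF9 by about as much. No pattern of direction is read from these genes.

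Sensors of foreign nucleic acid were among the members with high signals. IFIH1, which encodes the receptor MDA5 for long double-stranded RNA, had a signal of 5651 in the knock-down cells and 5989 in the control cells (log2 ratio -0.13), and its 3 probe sets had log2 ratios between -0.50 and -0.014. IFI16, a sensor of DNA, had 4924 and 3996 (0.26), with 3 probe sets between 0.015 and 0.26. The regulator DHX58, which encodes LGP2, was of low signal, with 29.2 and 102. The log2 ratio of -1.85 for DHX58 rests on a signal below the filter in the knock-down cells, and among the 7981 genes of low signal 14.9% passed 1.5-fold downward and 39.9% upward.

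The OAS family makes short chains of adenylate that activate the ribonuclease RNase L. All 4 members had log2 ratios above 0, as had 5782 of all 11794 genes, and none passed 1.5-fold. The median of all probe sets was 0.21 at the signals of OAS1 and 0.056 at those of OAS2 and OASL. OAS1 had a signal of 145 in knock-down cells and 107 in control cells, a log2 ratio of 0.40 that was 0.21 after subtraction of a loess curve and 0.22 after quantile normalization. OASL, a relative without this enzyme activity, had 292 and 226 (0.33, and 0.045 in a further probe set). OAS2 had 257 and 219 (0.19) and OAS3 414 and 393 (0.031). The probe sets of OAS1, OAS2, OAS3 and OASL thus had signals between 107 and 414 on both arrays. Further probe sets of OAS1 (202869_at) and OAS3 (232666_at), both of low signal, had log2 ratios of -1.09 and -1.18, in the opposite direction.

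IFIT2 was lower in both of its probe sets. The IFIT proteins bind viral RNA and block its translation. The signal of IFIT2 was 767 in the knock-down cells and 1448 in the control cells for 226757_at (log2 ratio -0.96, 1.95-fold lower), and 349 and 544 for 217502_at (log2 ratio -0.69). The other genes of the family differed less. IFIT1 had 208 and 206 (log2 ratio -0.027). IFIT3 had 2687 and 2991 (-0.20), with -0.18 in its further probe set. IFIT5 had 1087 and 1262 for 203595_s_at (-0.26) but 544 and 354 for 203596_s_at (0.57), so that its probe sets differed in direction. The 4 IFIT genes lie close together on chromosome 10. Of the 17 measured genes next to IFIT2 that are on none of the interferon lists, 14 had a log2 ratio below 0, with a median of -0.22. Of all 11794 genes 6012 were below 0. The part of the IFIT2 region in the IFIT2 difference was not tested. SAMD9 on chromosome 7 had a log2 ratio of 0.21, with 15 of 19 neighbors below 0 (median -0.31). IFIT1 and IFIT2 were the pair of chromosomal neighbors among the members with the largest gap (1.91-fold), and no such pair differed by over 2-fold.

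MX1 showed the lowest log2 ratio of all members above the filter. It encodes a GTPase that traps viral nucleocapsids in the cytoplasm. Its signal was 340 in the knock-down cells and 716 in the control cells (log2 ratio -1.12, 2.17-fold lower). Only 1 probe set of MX1 was on the array, so that this value could not be set against a further probe set. The neighboring gene MX2, which encodes an inhibitor of HIV, had 1359 and 1669 (-0.34). The 19 genes next to MX1 had a median log2 ratio of -0.0055, although the 125 measured genes of chromosome 21 had the second lowest median of all chromosomes (-0.17). The guanylate-binding proteins GBP1 and GBP2, GTPases induced mainly by interferon gamma, had 799 and 739 (0.067) and 730 and 783 (-0.15) in knock-down and control cells. A further GBP1 probe set, 231577_s_at, had 744 and 364 (0.99), whereas the GBP1 probe set 202269_x_at had 439 and 363 (0.23), so that the size of the GBP1 difference depended on the probe set.

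ISG15, a protein that is attached to other proteins like ubiquitin, had a signal of 2752 in the knock-down cells and 2515 in the control cells (log2 ratio 0.084). The enzyme genes grouped with it went in both directions, below 1.5-fold by the probe set of highest signal. USP18, which removes ISG15 and dampens the interferon receptor, had 610 and 782 (-0.40). HERC5, the main ligase for ISG15, had 1787 and 2110 (-0.28), and its neighbor HERC6 had 845 and 622 (0.40). TRIM25, a ligase that acts on the RNA sensor RIG-I, had 2222 and 1941 (0.15), but 206 and 302 in the probe set 206911_at (-0.60), which was past 1.5-fold lower.

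Of the 3 genes of nuclear bodies, SP110 and SP100 had log2 ratios above 0 and PML below 0. All 5 probe sets of SP110 were higher in the knock-down cells (log2 ratios of 0.20 to 0.36), with signals of 1490 and 1257 for 208012_x_at. SP100, a constant part of PML nuclear bodies, had 1748 and 1425 (0.25) and was higher in 5 of 6 probe sets (-0.070 to 0.59). PML, which builds these bodies, had 266 in knock-down cells and 349 in control cells (-0.44), and its 6 probe sets above the filter ranged from -0.96 to 0.38. Neither SP110 nor SP100 passed 1.5-fold by its probe set of highest signal, although 210219_at of SP100 did, with 318 and 204. TRIM21, an antibody receptor of the cytosol, had nearly equal signals of 703 and 681 (0.00075). TRIM22 was of low signal, with 58.7 and 69.4.

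Of the 4 genes for enzymes on RNA and nucleotides, ADAR, ISG20 and RSAD2 differed by less than 1.25-fold and CMPK2 by more. ADAR, which edits adenosine in double-stranded RNA, had the highest signal of the members on the knock-down array with 6801, against 5740 in control cells (0.20). The exonuclease ISG20 had 2155 and 1923 (0.12, and 0.29 in a further probe set). RSAD2, which encodes viperin and makes a chain-terminating nucleotide, had 117 and 105 (0.10). Its neighbor CMPK2, a nucleotide kinase of mitochondria, had 147 and 192 (-0.43, 1.34-fold lower). RSAD2 and CMPK2 were, together with OAS1, the 3 members above the filter with a signal under 200 on both arrays.
The ADP-ribosyltransferases PARP9 and PARP14 had 583 and 586 (-0.053) and 879 and 929 (-0.13) in knock-down and control cells. SAMD9 and SAMD9L, neighbors that restrict poxviruses, had 357 and 300 (0.21) and 1251 and 1067 (0.18). By the probe set of highest signal these 4 genes differed by less than 1.25-fold. A further PARP9 probe set, 227807_at, differed in direction and by more than that, with 298 and 226 (0.36).

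The remaining effectors above the filter also differed by less than 1.25-fold. BST2, which encodes tetherin and holds virus particles at the membrane, had 737 in knock-down cells and 887 in control cells (-0.31). IFI6, a small protein of the endoplasmic reticulum and mitochondria, had 402 and 383 (0.023), and IFI35, a cytosolic regulator of the response, had 1487 and 1248 (0.21). The neighbors IFI44 and IFI44L had 321 and 313 (-0.0079) and 852 and 986 (-0.26). The scramblase PLSCR1 had 1339 and 1553 (-0.26), and EPSTI1 had 1081 and 1233 (-0.23, and -0.63 in a further probe set). XAF1, an antagonist of the caspase inhibitor XIAP, had 1278 and 1446 for 228617_at (-0.22), whereas its other 2 probe sets were above 0 (up to 0.32).
IFI27 and LGALS3BP were of low signal. IFI27, a mitochondrial protein, had 146 in the knock-down cells and 50.8 in the control cells (log2 ratio 1.48). LGALS3BP, a secreted glycoprotein, had 97.6 and 63.5 (0.58). Of all genes of low signal 39.9% were at least 1.5-fold higher, so nothing is read from these 2 genes.

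**Figure D3:**
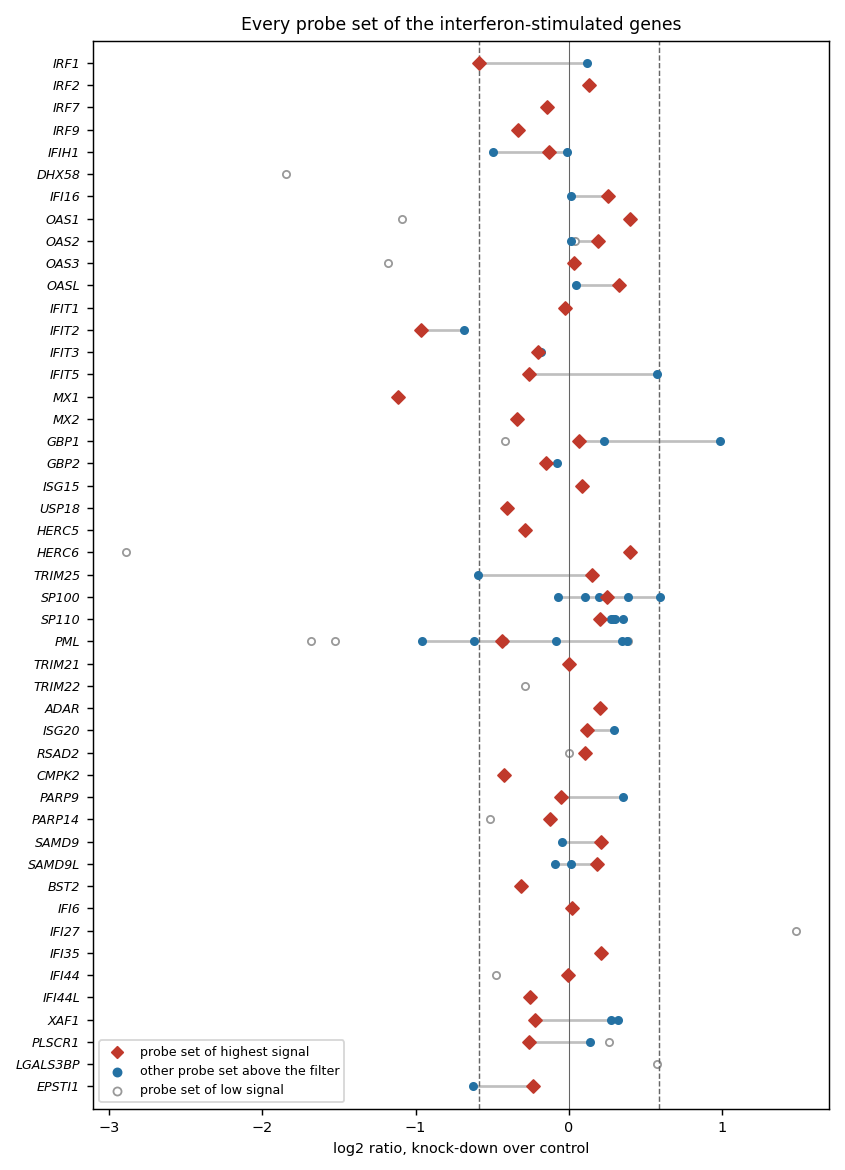
The 97 probe sets of the 47 interferon-stimulated genes by their log2 ratio, knock-down over control cells, from a single array of each, with dashed lines at 1.5-fold. Red diamonds are the probe sets of highest signal, blue points other probe sets above the filter, and open points those of low signal. Both IFIT2 probe sets and the only MX1 probe set lie left of the lower line, and the red and blue points of PML reach from -0.96 to 0.38.

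Different probe sets of 1 member often disagreed. Of 97 probe sets for the members 80 were above the filter. At least 1.5-fold lower were 7 of these (6.54% of all 22379 probe sets above the filter with 1 gene), and 2 were at least 1.5-fold higher (7.38% of all). Of 21 members with 2 or more probe sets above the filter, 6 had log2 ratios above 0 in every probe set, 5 had log2 ratios below 0 in every probe set, and 10 had both signs. The 22 other members above the filter had 1 such probe set each. How often the signs differed among all 5840 genes with several probe sets above the filter was not counted. Nothing particular to the members is therefore read from these counts of signs. IFIT2 was the one member with several probe sets in which every one passed 1.5-fold.

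Members with and without an ISRE match in the promoter were also compared. Of the 34 members above the filter with a RefSeq promoter, 21 had an ISRE match and 13 had none. The search covered only the form with 2 bases between GAAA and GAAA. Promoters of OAS1, XAF1 and IFI16, counted as without a match, hold GAAA and GAAA with 1 base between them. Members without a match are thus not members without any such element. The median log2 ratio was -0.053 with and 0.20 without a match. A difference under 1.25-fold was found for 20 of the 21 members with a match (95.2%), the exception being MX1. It was found for 8 of the 13 members without (61.5%) and for 63.9% of all genes. The bound of 1.25-fold was chosen after the values were seen. The comparison is a description of these members, with no test. The promoter table had no entry for 11 of the 47 members, which are in neither group. Of these, IFIT2, PML, USP18, MX2 and OASL differed by more than 1.25-fold. IRF2, IRF7, OAS2 and GBP2 differed by less, and DHX58 and TRIM22 were of low signal. The shares therefore depend on which members had an entry.

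Further genes of the interferon pathway were examined in 5 lists, with 67 genes above the filter of 98 listed. Of 10 interferon receptors and JAK-STAT signal genes above the filter 9 had a log2 ratio below 0 (median -0.34), as had 6012 of all 11794 genes. At 1.5-fold 1 was lower and 1 higher, against 5.42% and 7.54% of all genes, and with 10 genes nothing is read from these counts. IFNAR2, a chain of the receptor for interferon alpha and beta, had a signal of 226 in the knock-down cells and 389 in the control cells (log2 ratio -0.83, and -0.40 in a further probe set). The other chain, IFNAR1, had 856 and 1184 (-0.51), with 4 probe sets between -0.51 and 0.090. IFNGR2, a chain of the interferon gamma receptor, had 1314 and 1867 (-0.55). IFNAR1, IFNAR2, IFNGR2 and IL10RB (-0.069) lie next to each other on chromosome 21, and of the 17 other genes next to IFNAR2 13 had a log2 ratio below 0, with a median of -0.29. The part of the region in the receptor values was not tested. IFNGR1 (-0.46), JAK1 (-0.38), STAT3 (-0.31), JAK2 (-0.20) and TYK2 (-0.14) were also below 0 and lie on other chromosomes. STAT3 was below 0 in all 4 probe sets (-0.94 to -0.31), whereas IFNGR1 and JAK2 each had 1 probe set above 0. IFNLR1, a chain of the interferon lambda receptor, was higher, with 256 and 154 (0.68) and a log2 ratio of 0.28 in its further probe set. The IFNAR2 probe set of highest signal, 204785_x_at, has the ending of probe sets that can bind transcripts of related genes, and 1 further IFNAR2 probe set of low signal, 204786_s_at, differed in direction, with 112 and 75.9 (0.52).

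The sensing genes upstream of interferon had a median log2 ratio of -0.071 (15 genes), with 1 at least 1.5-fold higher and none lower by the probe set of highest signal. TLR7, a receptor for single-stranded RNA, had 145 in knock-down cells and 75.4 in control cells (0.90). The control signal of TLR7 was below 97.7, so that its probe set was above the filter through the knock-down array alone, and nothing is read from this count. STING1, the adaptor of the DNA sensor cGAS, had 559 and 785 in its probe set of highest signal (-0.53) and 238 and 596 in 224916_at (-1.37). Further probe sets of other sensing genes also passed 1.5-fold. RIGI had -0.39, but -0.75 and -0.73 in its further probe sets. MAVS had 0.19, but -1.26 in 220305_at, and IRF5 had -0.17, but -0.66 in 205468_s_at. CGAS went the other way, with -0.071, but 0.77 in 242077_x_at. STING1 lies on chromosome 5, as does IRF1. Of all 11794 genes 6012 had a log2 ratio below 0. Of the 20 genes next to STING1 18 had a log2 ratio below 0 (median -0.29), and of the 20 genes next to IRF1 13 did (median -0.35). The part of these regions in both values was not tested. The negative regulators of the signal had a median of 0.018 (10 genes), and none passed 1.5-fold. Of 18 interferon ligand genes with a value, 15 were of low signal. The other three were IFNA14 with 150 and 95.5, IFNA17 with 294 and 170 and IFNL1 with 140 and 84.6 in knock-down and control cells, all at least 1.5-fold higher. The control signals of IFNA14 and IFNL1 were below 97.7, so that these 2 genes were above the filter through the knock-down array alone, and nothing is read from their direction. The probe sets of IFNA14 and IFNA17 also end in _x_at, and the median log2 ratio of all probe sets was 0.21 at signals between 97.7 and 136, where IFNA14 and IFNL1 lie, and 0.056 at signals between 198 and 306, where IFNA17 lies.

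Of 29 other interferon-induced genes above the filter 4 were at least 1.5-fold higher (7.54% of all genes) and 2 at least 1.5-fold lower (5.42% of all genes). A difference under 1.25-fold, seen in 63.9% of all genes and 74.4% of the members, was found for 16 of these 29 genes (55.2%). Their median log2 ratio was 0.051 and their interquartile range 0.46, the same as that of all genes. IFITM3, which blocks the entry of viruses into the cytosol, had a signal of 1285 in the knock-down cells and 561 in the control cells (log2 ratio 1.15, 2.22-fold higher). The neighboring and very similar genes IFITM1 and IFITM2 had log2 ratios of 0.051 and 0.0083. The only IFITM3 probe set ends in _x_at, and binding of its relatives was not tested. APOL1, an apolipoprotein that kills trypanosomes, had 331 and 173 (0.89), SP140, a relative of SP110 and SP100, had 847 and 511 (0.68), and GBP3 had 758 and 479 (0.62). The enzyme IDO1, which degrades tryptophan, had 114 in knock-down cells and 252 in control cells (-1.19), and the chemokine CXCL10, which attracts T cells, had 1134 and 2050 (-0.90). IDO1 and CXCL10 were each measured by 1 probe set above the filter. The genes next to IDO1 and CXCL10 had median log2 ratios of 0.015 and -0.026.

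**Figure D4:**
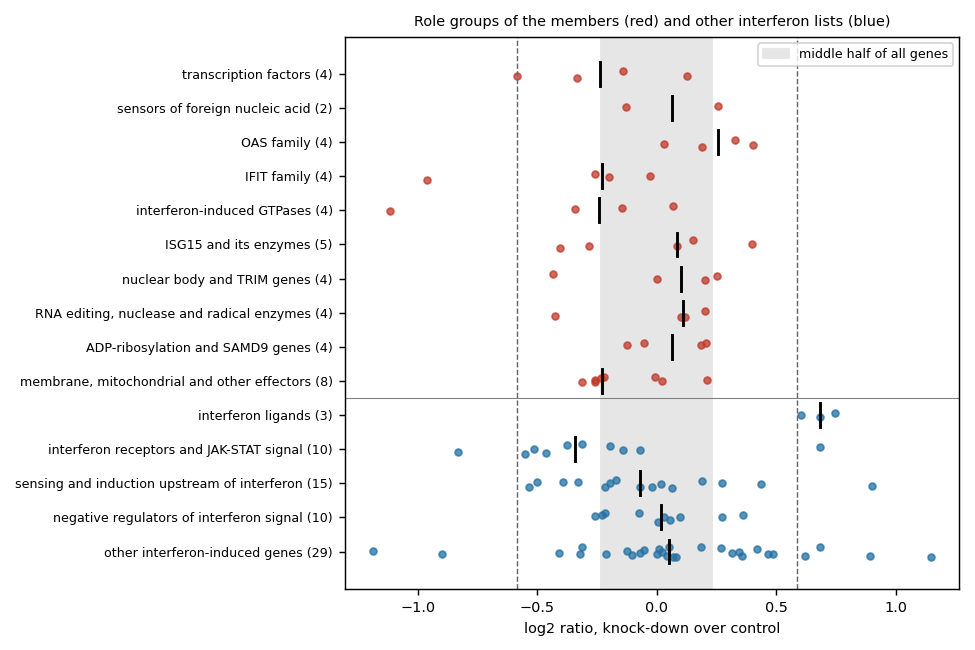
Log2 ratios, knock-down over control cells, of the genes above the filter in the 10 role groups of the members (red) and 5 other lists of the interferon pathway (blue), with the number of genes in brackets, black lines at the medians, dashed lines at 1.5-fold and a grey band for the interquartile range of all genes (1 array per condition). The median of the OAS family is 0.26 and that of the IFIT family -0.23, and the receptor list has a median of -0.34.

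**Figure D5:**
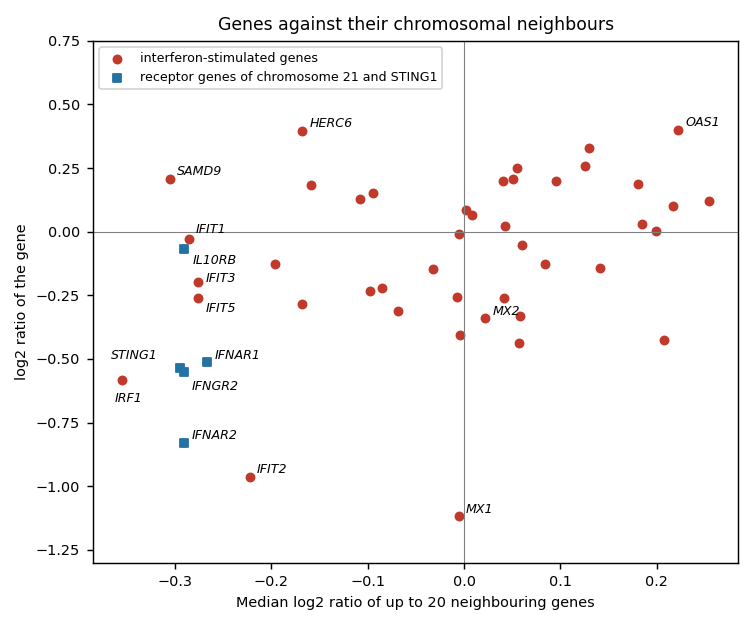
Log2 ratio of each gene, knock-down over control cells, against the median log2 ratio of up to 20 genes next to it on the chromosome, the 10 nearest measured genes on each side without genes of the interferon lists (1 array per condition). Red points are interferon-stimulated genes and blue squares are receptor genes of chromosome 21 and STING1. MX1 lies at a neighbor median of -0.0055, whereas IRF1, IFIT2, IFNAR2 and STING1 have neighbor medians between -0.35 and -0.22. SAMD9 lies at 0.21 with a neighbor median of -0.31.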

How the data were processed

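Total RNA of PRAME knock-down cells and vector control cells of the line L-428 was hybridized to Affymetrix HG_U133PLUS2.0 arrays, 1 per condition. The authors deposited MAS5 signal intensities made with Expression Console 1.1, on a linear scale, for 54675 probe sets. MAS5 subtracts a background, so low signals are imprecise. The genome build behind the probe annotation is not given in the sources used here.

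The 62 control probe sets were left out. No offset was added before log2 was taken, and 27307 probe sets at or above the median of the mean log2 signal were kept. Centering subtracted the median log2 ratio of these. In the platform annotation 41097 probe sets had a single gene symbol, 1801 had more and 11777 had none. Only the first kind was used, and 41037 of these were matched to RefSeq (GRCh38.p14) by gene ID, for current symbols and the order of genes. A gene was represented by its probe set of highest mean log2 signal. No test was made. Counts at 1.5-fold and 2-fold were set beside those of all genes. The members and lists were chosen with earlier results of these data known. Every member is given with its signals. Of the other lists, genes past 1.5-fold and the chains of the interferon alpha receptor are named, and any further gene was picked with its value known. Of 98 genes on the other lists 10 were not analysed here, among them 2 that were to be named whatever their values. 

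The 9 alternatives were an offset of 64, a filter at the 75th percentile or none at all, no centering, quantile normalization, a loess curve of span 0.4 subtracted from the log2 ratios, a gene's median over its probe sets, only probe sets that end in neither _a_at, _s_at nor _x_at, and the second highest probe set. The scripts were tested on simulated data. Calculations were made in Python 3.11.15 with pandas 2.3.3, numpy 2.4.6 and, for loess, statsmodels 0.14.6, and plots with matplotlib 3.10.9.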

Additional observations from a re-analysis of the deposited data

How the results depend on the processing

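MX1 and IFIT2 were at least 1.5-fold lower under all 9 alternatives. For MX1, with its single probe set, only the centering, quantile, loess and offset alternatives could move the value, which was then -1.07, -1.09, -1.09 and -0.99. OAS1 was above HERC6 (0.40 each) but below it after quantile normalization (0.22 against 0.44), loess (0.21 against 0.45) and with the offset (0.25 against 0.37). With the offset of 64 no member was 2-fold lower. Without a filter IFI27 was added as 1 member higher at 1.5-fold and at 2-fold, and DHX58 as a second member (2 in all) lower at 2-fold. With the second highest probe set 1 member was higher (GBP1) and 5 were lower (MX1, IFIT2, TRIM25, PML and EPSTI1). The median of the members was -0.14 with the filter at the 75th percentile, where that of all genes was -0.059, and 0.018 without centering. In these cases the cause was not tested.

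The small counts of the other lists moved more. For the interferon ligands the count of higher genes was 1 after quantile normalization (median 0.48), 1 after the loess subtraction (0.47), 0 with the offset (0.42), 9 without a filter (0.57, with 2 lower), 0 at the 75th percentile, where no gene was left for a median, and 1 without the endings. For the receptors no gene was higher with the offset, at the 75th percentile, with the median over probe sets, without the endings or with the second highest probe set. The receptors lower at 1.5-fold numbered 0 at the 75th percentile and without the endings, and 2 with the median over probe sets. For the sensing genes the count of higher genes was 0 with the offset, at the 75th percentile and without the endings, and 2 without a filter and with the second highest probe set. The lower sensing genes numbered 1 without a filter and without the endings, 2 with the median over probe sets and 3 with the second highest probe set. For the negative regulators 1 gene was higher with the median over probe sets, and 1 was higher and 1 lower with the second highest probe set. Of the other interferon-induced genes 1 was lower at the 75th percentile and 1 was higher without the endings.

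Of 412 log2 ratios of single genes under the alternatives, 394 moved by less than the pooled SD between probe sets and none that passed 1.5-fold changed its sign. Many of these values could not move that far. A change of filter left the log2 ratio of a gene as it was, and leaving out the centering shifted every gene by 0.045. The choice among probe sets could not move a gene with 1 probe set above the filter, as for 22 members. The count of 394 is therefore no measure of stability. No paired analysis was possible because each condition had 1 array. No array could be left out, and no spread between cultures was measured.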
